A study of Homo sapiens with 14 samples.

Results

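SNAREs are the membrane proteins that drive vesicle fusion. Followed here were 36 human genes listed as SNAREs by symbol, among the 19440 gene symbols of the count tables. All 36 had a row in every table. By how the protein is held, 29 are listed as tail-anchored, with a single membrane segment at the C-terminal end. Another 5 are listed without a membrane segment of their own (SNAP23, SNAP29, SNAP47, YKT6 and STX11), and 2, SEC22A and SEC22C, with several segments. These classes came with the gene list and were not checked against protein sequence here. SEC22A and SEC22C are counted as SNAREs because they are on the list, and whether they act in fusion was not examined. A filter on low counts kept 9458 genes for testing, among them 25 SNAREs: 19 tail-anchored, 4 without a segment, and both SEC22A and SEC22C. The filter kept a gene whose counts reached a set level in at least 2 libraries. Of the 25 tested SNAREs 15 reached it through inputs alone, 60% against 16.1% of all tested genes, and 10 through inputs and IPs alike. The 15 were 14 tail-anchored members and SNAP29. A member kept through its inputs alone had to be high there, so counts and medians over the tested tail-anchored members are descriptions of the members kept, not of the family.

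The measurements are selective ribosome profiling of Flp-In T-REx 293 cells, a line derived from human embryonic kidney HEK293. The ER membrane protein complex (EMC) is a multi-subunit insertase of the endoplasmic reticulum. The EMC6 line is an EMC6 knockout that expresses 3Flag-EMC6 under doxycycline control, while the EMC7 and EMC10 lines express 3Flag-EMC7 or 3Flag-EMC10 under the same control and carry no stated knockout. All lines received doxycycline at 0.5 to 1 ng/mL for 72 h in 10 dishes. Microsomes were treated with micrococcal nuclease and solubilised (input), and ribosomes bound to the bait were collected on Flag beads (IP). Each fraction had 2 libraries for EMC6, 2 for EMC7 and 3 for EMC10, 14 in all, and no IP from cells without a tagged bait was analysed here. The labels do not say whether a line is 1 clone, nor whether replicates came from separate cultures.

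During fusion, a Qa-, a Qb-, a Qc- and an R-SNARE motif on opposing membranes zip into a helical bundle, and the ATPase NSF with its adaptor alpha-SNAP takes the bundle apart again. A tail anchor emerges from the ribosome only when translation ends, so these proteins are inserted after release from the ribosome, by the GET pathway or by the EMC among others. A protein with several segments, by contrast, can engage the membrane while its ribosome is still translating. Footprints count ribosomes on a message, so message abundance and ribosomes per message cannot be told apart in these libraries.

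Gene counts per library ranged from 1692490 to 3395114 in inputs and from 515302 to 2248591 in IPs, with the lowest in the EMC6 line. The SNAREs together took 557 to 952 counts of each input, 0.0232 to 0.0342% of it, and 109 to 302 counts of each IP, 0.0107 to 0.0212%. Each bait's own message was higher in its IP, by 7.54 ± 0.25 (log2, SE) for EMC6, 5.71 ± 0.28 for EMC7 and 7.31 ± 0.18 for EMC10. Of the 8 HEK293 marker genes, CDH2, VIM, KRT8, KRT18 and NEFL had 2216 to 33628 counts each over all libraries, whereas PAX2 had 41, NEFM 1 and LHX1 was listed at 0. The 12 markers of blood, liver, epidermis, glia, endothelium, heart and mature kidney had at most 4 counts each over all libraries, with 6 of them at 0. Levels below are footprint counts per library, put on a common scale by the TMM method and written as CPM. They are not corrected for message length. Changes are log2 ratios of IP to input with their SE, and a change passed when its adjusted p in edgeR's quasi-likelihood test, corrected over all 9458 genes, was under 0.05.

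SEC22A and SEC22C, the 2 listed members with several membrane segments, were the only ones on the list whose rise in IP passed the test. Averaged over the 3 lines, SEC22C rose by 1.43 ± 0.20 and SEC22A by 0.93 ± 0.17, whereas none of the 19 tail-anchored and none of the 4 segment-free SNAREs passed as higher (0 also at an unadjusted p under 0.05 in edgeR, and 0 in DESeq2). BET1 stood above 0 without passing, at 0.67 ± 0.38, and was higher in 6 of 7 pairs when counted with a pseudocount of 0.5. In pair 1 of the EMC7 line its CPM was lower in the IP, at 3.60 against 3.72, and only the pseudocount made it higher. In the average over the lines, 5 tail-anchored SNAREs fell (STX4, STX7, STX18, GOSR1 and VTI1A), together with SNAP23. All of these but SNAP23 had passed the filter through their inputs alone. The 2 risen of 25 compare with 23.7% of all genes higher in IP, and the 6 fallen of 25 with 26.9% lower. The median SNARE stood at -0.39, against -0.19 for all genes. Within pairs the SNARE median minus the all-gene median was -0.24 ± 0.32 (SD over 7 pairs). It was above 0 in 2 pairs, those of the EMC6 line (0.11 and 0.18). With 60% of tested SNAREs but 16.1% of all genes kept through inputs alone, the SNARE median describes the members kept. With library size alone as the scale 1 SNARE rose and 22 fell, where 1135 of all 9458 genes rose and 7282 fell. With scaling on luminal and secreted messages 2 SNAREs rose and 19 fell, where 1694 of all genes rose and 5467 fell.

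**Figure D1:**
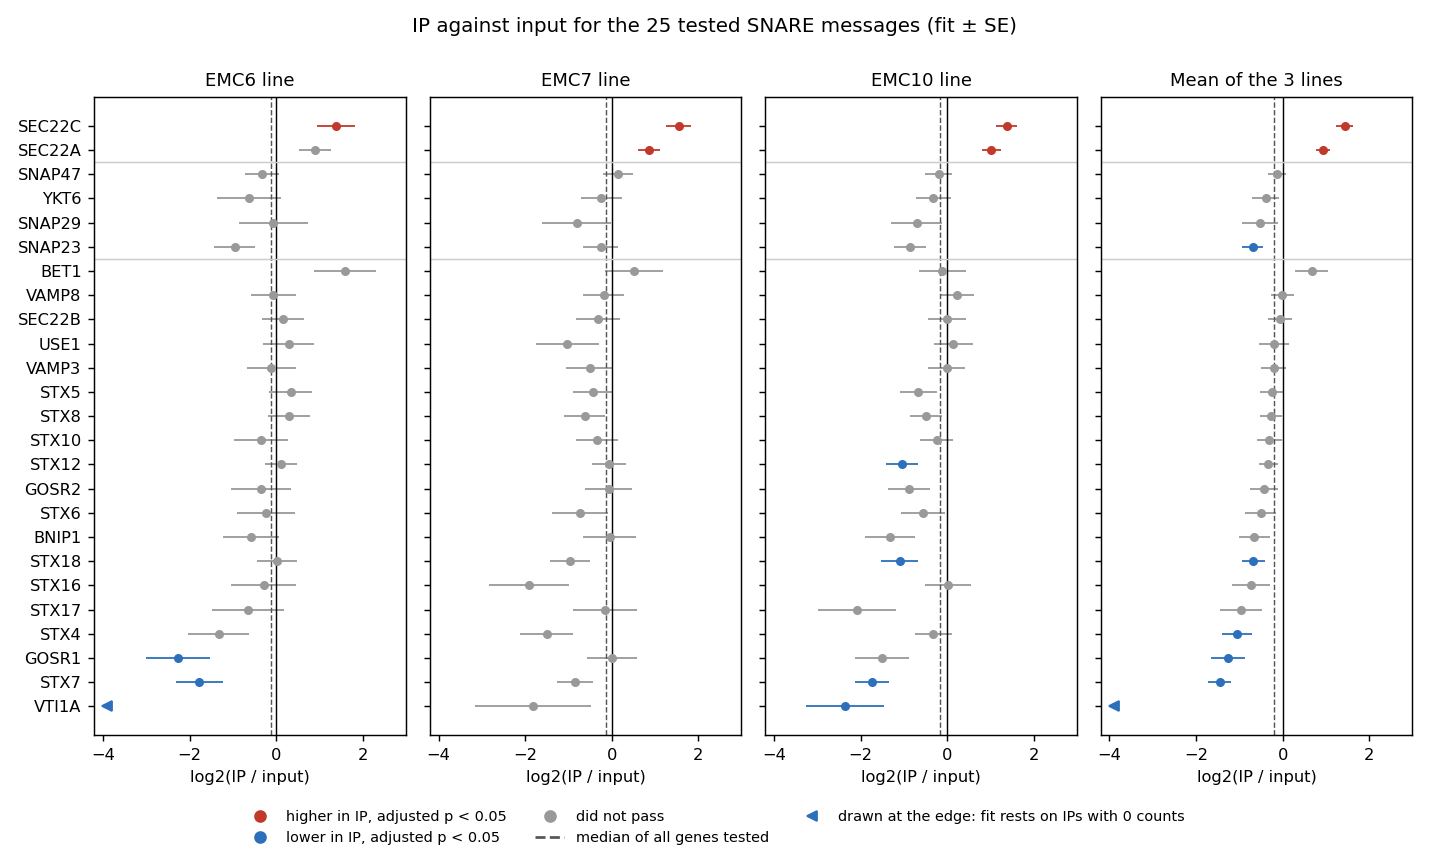
Each point is the fitted log2 ratio of IP to input of 1 of the 25 tested SNARE messages, with its SE as a bar, for each line and for the average of the 3 lines; grey rules separate several segments, no segment and tail-anchored members, and the dashed line is the median of all 9458 genes. SEC22C and SEC22A lie to the right of the dashed line in every panel, with BET1 further right in the EMC6 panel, and STX7, GOSR1 and VTI1A lie at the low end of the mean. In the EMC6 and mean panels VTI1A is drawn at the edge without a bar, because its fit rests on IPs with 0 counts.

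SEC22A (chromosome 3, 123201943 to 123274136 in RefSeq's GRCh38.p14) encodes an ER protein with an N-terminal longin domain like that of the R-SNARE SEC22B. In the EMC6 line its inputs held 11.9 and 11.6 CPM and its IPs 22.4 and 21.9. In the EMC7 line the inputs held 24.0 and 17.4 CPM and the IPs 41.0 and 34.5. In the EMC10 line the inputs held 17.4, 16.3 and 26.5 CPM and the IPs 30.1, 45.7 and 43.9. Input and IP did not overlap in any line, and the IP was the higher in 7 of 7 pairs. The change was 0.91 ± 0.37 with EMC6 (edgeR adjusted p = 0.0668), 0.86 ± 0.26 with EMC7 (0.00979) and 1.02 ± 0.22 with EMC10 (0.000244), and averaged over the lines the adjusted p was 1.67e-05. With IP and input of the same replicate number paired as a block, the EMC6 change passed as well, at an adjusted p of 0.0311. With EMC7 the change did not pass without IP replicate 1 or input replicate 2. Nor did it pass with library size without bait counts or with scaling on luminal and secreted messages, and its adjusted p reached 0.824 over all settings tried. Library size without bait counts also lost the EMC10 and mean calls.

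SEC22C (chromosome 3, 42547969 to 42601078) encodes a second longin-domain ER protein. Its levels were 4.70 and 9.92 CPM in the EMC6 inputs and 15.0 and 21.9 in the IPs. In the EMC7 line they were 16.3 and 11.9 CPM in the inputs and 51.1 and 30.3 in the IPs. In the EMC10 line they were 12.3, 17.6 and 16.3 CPM in the inputs and 50.6, 36.7 and 34.4 in the IPs. As for SEC22A, every IP lay above every input of its line, in 7 of 7 pairs. SEC22C rose by 1.38 ± 0.44 with EMC6 (edgeR adjusted p = 0.0169), 1.55 ± 0.29 with EMC7 (3.63e-05) and 1.37 ± 0.24 with EMC10 (1.4e-05). Over the mean the adjusted p was 1.02e-07, and it passed in all 22 settings tried. In single lines, the EMC6 change did not pass in 6 of 22 settings (adjusted p up to 0.397). Among these were the scales of library size alone, library size without bait counts, and luminal and secreted messages. The others were that line fitted alone, and input replicate 1 or IP replicate 2 left out. The EMC7 change did not pass with library size alone or without IP replicate 1 (up to 0.0943), nor the EMC10 change with library size alone (0.300). SEC22C shares its interval with SS18L2 and NKTR, and whether counting used strand is not stated, so its counts are uncertain to that extent.

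Their rise was moderate among all genes. Averaged over the lines, 83.9% of tested genes lay below SEC22A and 89.6% below SEC22C. The scale also set the sign of SEC22A: with library size alone it stood at -0.019 over the mean, at -0.16 with EMC7 and at -0.090 with EMC10, when the median of all genes moved from -0.19 to -1.13. Relative to that median, SEC22A stood 1.12 higher (1.04 to 1.21 over 22 settings) and SEC22C 1.62 higher (1.46 to 1.83).

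SEC22B, their paralog, is a tail-anchored R-SNARE of ER-to-Golgi transport. It had 10.5 and 7.19 CPM in the EMC6 inputs against 15.0 and 6.57 in the IPs, and 5.35 and 6.43 CPM in the EMC7 inputs against 5.03 and 4.18. In the EMC10 line its inputs held 3.71, 5.50 and 5.89 CPM and its IPs 6.02, 6.27 and 2.87. Input and IP overlapped in the EMC6 and EMC10 lines, and the change over the mean was -0.05 ± 0.28 (edgeR adjusted p = 0.89). RefSeq lists 3 SEC22B pseudogenes, so reads could be shared between copies and this level is uncertain. Pseudogenes of STX8, STX18, BET1, SNAP23, YKT6 and the untested VTI1B are listed too, with the same uncertainty for their levels.

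Within each library pair, where any scaling factor cancels, the paralogs can be set side by side as a description. SEC22A and SEC22C were known to be higher in IP and SEC22B was added after its values were seen, so no test is given. SEC22A exceeded SEC22B in log2 IP over input by 0.92 ± 0.58 (SD over 7 pairs), from 0.019 to 1.59, and lay above it in 7 of 7. SEC22C exceeded SEC22B by 1.40 ± 0.42, also in 7 of 7, and SEC22A by 0.48 ± 0.53, in 6 of 7. The 7 pairs are replicates within 3 lines, not 7 independent lines.

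**Figure D2:**
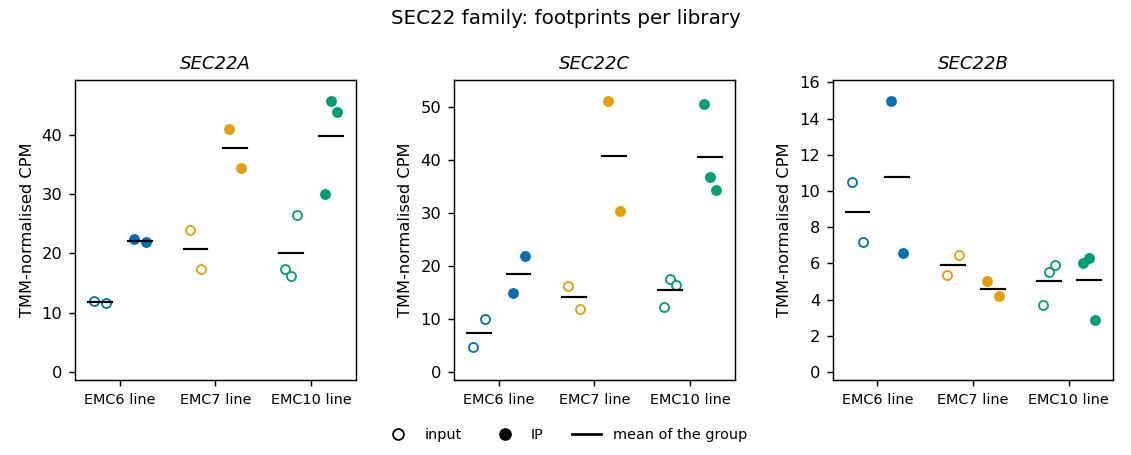
TMM-normalised CPM of SEC22A, SEC22C and SEC22B in each of the 14 libraries by line, with open circles for inputs, filled circles for IPs and bars for group means. The IPs of SEC22A and SEC22C lie above all inputs of their line, while those of SEC22B overlap the inputs in the EMC6 and EMC10 lines.

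Within the lines, 1 SNARE rose and 3 fell with EMC6, against 17.6% and 9.27% of all genes higher and lower. With EMC7 2 rose and 0 fell, against 20.4% and 9.68%. With EMC10 2 rose and 4 fell, against 19.9% and 13.9%. At an unadjusted p under 0.05 in edgeR, 3 SNAREs were higher and 3 lower with EMC6, the third higher one being BET1. With EMC7 2 were higher and 3 lower (STX4, STX16 and STX18), and with EMC10 2 were higher and 8 lower. The share of all genes past that unadjusted cutoff is not given here, so these counts are not read as an excess. DESeq2 called 0 fallen with EMC7, where 523 of all genes fell. With the replicate pairs as a block 1, STX4, passed as lower with EMC7, where 1446 of all genes did. In edgeR with TMM scaling and no block, every member that passed as higher was SEC22A or SEC22C. Every one that passed as lower in a single line of that fit was tail-anchored. Of the 25 tested members 19 were tail-anchored, 14 of them kept by the filter through inputs alone, so this describes the members kept.

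Among the Qa-SNAREs, the syntaxins that nucleate the bundle, 7 were tested, 0 rose and 3 fell over the mean, with a median of -0.73. Counts by role and by membrane rest on few members and are to be read against the 23.7% of all genes that were higher and the 26.9% that were lower. STX7 (chromosome 6, 132445867 to 132513472), the syntaxin of late endosomes, was the most strongly covered of these. Its counts were 42 and 40 in the EMC6 inputs against 4 and 2 in the IPs, 50 and 30 against 9 and 5 in the EMC7 line, and 53, 68 and 49 against 1, 6 and 5 in the EMC10 line. After scaling, this was 13.7 to 15.2 CPM against 2.19 to 7.48 with EMC6, 9.65 to 11.6 against 5.22 to 6.47 with EMC7, and 12.3 to 14.9 against 1.20 to 5.38 with EMC10. All IPs of a line lay below all of its inputs, in each of the 3 lines. STX7 reached the filter's level in 7 inputs and 1 IP, so it was kept through its inputs, and its p-values describe a member selected that way. The fall passed with EMC6 (-1.78 ± 0.54, edgeR adjusted p = 0.0121) and with EMC10, and over the mean (adjusted p = 1.46e-05), but not with EMC7 (-0.85 ± 0.42, 0.137). The EMC6 call was lost without IP replicate 2, in DESeq2 and with that line fitted alone (adjusted p up to 0.438), whereas the EMC10 and mean calls held in all 22 settings. Relative to the median of all genes STX7 stood at -1.27 (-1.55 to -0.999 over the settings), and 0.761% of genes lay below it.

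STX4 (chromosome 16, 31033095 to 31040168), a syntaxin of the plasma membrane, had counts of 18 and 32 in the EMC6 inputs against 2 and 3 in the IPs. In the EMC7 line the counts were 47 and 17 against 5 and 2, and in the EMC10 line 39, 38 and 29 against 12, 6 and 2. The IPs lay below the inputs in the EMC6 and EMC7 lines, while in the EMC10 line the first IP, at 14.5 CPM, exceeded all inputs. Like STX7, STX4 was kept by the filter through its inputs (7 inputs and 1 IP at the level), which limits its p-values in the same way. STX4 fell over the mean by 1.05 ± 0.34 (edgeR adjusted p = 0.0111) and passed in no single line, with -1.33 ± 0.71, -1.50 ± 0.61 and -0.32 ± 0.43 for EMC6, EMC7 and EMC10. With the pairs as a block the EMC7 change passed (adjusted p = 0.0235), and the mean was lost without input replicate 1 of EMC7 (0.0698) and in DESeq2.

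STX18 (chromosome 4, 4418968 to 4542343), the syntaxin of Golgi-to-ER traffic, had 27 and 40 counts in the EMC6 inputs against 12 and 5 in the IPs. The EMC7 line gave 49 and 37 against 10 and 4, and the EMC10 line 39, 46 and 41 against 2, 4 and 8. It did not separate with EMC6 (0.03 ± 0.46), where 22.4 CPM in IP replicate 1 was above both inputs, and the IPs were lower in the other two lines. Kept by the filter through its inputs (7 inputs and 1 IP at the level), STX18 has p-values that describe a member selected that way. Its change passed with EMC10 (-1.09 ± 0.43, edgeR adjusted p = 0.0448) and over the mean (-0.68 ± 0.26, 0.0292). Both lay near the threshold: the mean call was lost in 7 of 22 settings (adjusted p up to 0.240), namely DESeq2, DESeq2's size factors, and without EMC6 input 2, EMC6 IP 2, EMC7 IP 2, EMC10 IP 1 or EMC10 IP 2. The EMC10 call was lost in 8 (up to 0.195), which were both DESeq2 settings, EMC7 input 1 left out, and any EMC10 library but IP 3 left out. STX18 overlaps NSG1 in RefSeq, so its counts carry the uncertainty on strand given for SEC22C, and it has a listed pseudogene.

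STX12 (chromosome 1, 27773219 to 27824443), a syntaxin of recycling endosomes, separated with EMC10 alone. Its counts were 35 and 41 against 7 and 14 with EMC6, 39 and 21 against 10 and 8 with EMC7, and 49, 44 and 38 against 6, 4 and 5 with EMC10. In CPM the EMC10 IPs were below all inputs, at 3.58 to 7.23 against 9.67 to 11.4. The EMC10 change passed (-1.04 ± 0.36, edgeR adjusted p = 0.0238), while those with EMC6 (0.11 ± 0.37) and EMC7 (-0.07 ± 0.40) did not. The difference between EMC6 and EMC10, 1.16 ± 0.53, did not pass (adjusted p = 0.777), and the EMC10 call was lost in DESeq2 and without input 1, IP 2 or IP 3 of that line (up to 0.147).

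The Qa-SNAREs that did not pass in any comparison were STX5 of the early Golgi (-0.25 ± 0.27 over the mean), STX16 of the trans-Golgi network (-0.73 ± 0.44) and STX17, the syntaxin of autophagosomes (-0.96 ± 0.48). Their inputs held 7 to 28 counts each.

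Of the 4 tested Qb-SNAREs, 0 rose and 2 fell over the mean, with a median of -0.95. VTI1A (chromosome 10, 112446988 to 112855368), which works in traffic between endosomes and the trans-Golgi network, had 78 counts over the 7 inputs and 3 over the 7 IPs. It reached the filter's level in 2 inputs and in 0 IPs, so it was kept by the fraction in which it is high, and its p-values below describe a member selected that way. The inputs held 12 and 8 counts with EMC6, 5 and 7 with EMC7, and 9, 23 and 14 with EMC10. The IPs held 0 and 0, then 1 and 0, then 1, 0 and 1. The IP was below every input of its line in all 3 lines. A floor of 3 counts over the EMC6 IPs would put VTI1A 1.70-fold lower there, with no allowance for counting error in the input. The 95% exact interval of the EMC6 ratio, from 0 against 20 counts, ran from 0 to 0.796. With the 1 and 2 IP counts of the other lines, the ratio of IP to input was 0.263 with EMC7 (95% exact interval 0.00615 to 1.78) and 0.183 with EMC10 (0.0215 to 0.700), intervals that cover counting error only. VTI1A passed with EMC6 (edgeR adjusted p = 0.0498), EMC10 (0.0402) and over the mean (0.00235), where the fitted fold rests on libraries at 0 and is not given. The EMC6 call was lost in 10 of 19 settings (adjusted p up to 0.322), among them either EMC6 IP, EMC6 input 1, either EMC7 input, any EMC10 IP or EMC10 input 3 left out. The EMC10 call was lost in 5 of 19 (up to 0.198), with DESeq2's size factors and without any EMC10 IP or EMC10 input 3. The mean call was kept in all 21 that could be fitted. VTI1A overlaps ZDHHC6 in RefSeq.

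GOSR1 (chromosome 17, 30477408 to 30527592), the Golgi Qb-SNARE also called GS28, separated in 1 line only. Its counts were 33 and 25 against 1 and 2 with EMC6, 17 and 14 against 8 and 2 with EMC7, and 23, 16 and 22 against 3, 0 and 2 with EMC10. All EMC6 IPs lay below the inputs, and in each of the other lines 1 IP exceeded an input. GOSR1 reached the filter's level in 5 inputs and 0 IPs, so its p-values too describe a member kept through its inputs. With EMC6 the ratio of IP to input was 0.203, from 3 IP counts (95% exact interval 0.0407 to 0.624, covering counting error only). The edgeR adjusted p of that fall was 0.0208. With EMC7 the change was 0.01 ± 0.58 and with EMC10 -1.51 ± 0.63 (adjusted p = 0.0629). The fall over the mean, 1.26 ± 0.39 (0.0071), rested on the EMC6 line: over EMC7 and EMC10 alone it was -0.75 (0.170). The EMC6 call itself was lost in DESeq2 and without EMC6 input 1, IP 1 or IP 2 (adjusted p up to 0.202). The other tested Qb members, GOSR2 of the cis-Golgi (-0.43 ± 0.33) and BNIP1 of the ER (-0.65 ± 0.35), did not pass.

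**Figure D3:**
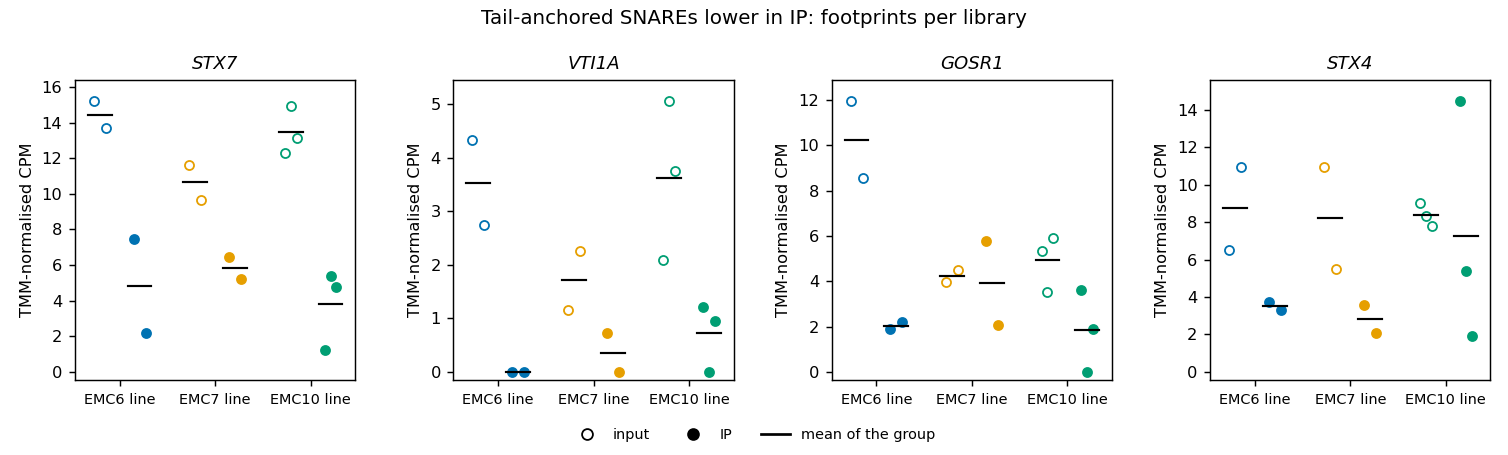
TMM-normalised CPM of the tail-anchored SNAREs STX7, VTI1A, GOSR1 and STX4 in each library by line, with open circles for inputs, filled circles for IPs and bars for group means. STX7 and VTI1A are lower in every IP than in every input of the same line, whereas GOSR1 separates with EMC6 alone and STX4 with EMC6 and EMC7.

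The 5 tested Qc-SNAREs had 0 risen and 0 fallen members over the mean in edgeR, 0 and 0 also at an unadjusted p under 0.05, and a median of -0.27. STX6 (-0.51 ± 0.35), STX8 (-0.27 ± 0.26) and STX10 (-0.31 ± 0.29) serve endosomes and the trans-Golgi network, and USE1 (-0.20 ± 0.35) serves retrograde traffic to the ER. BET1, the Qc-SNARE of ER-to-Golgi vesicles, had the highest value of the tail-anchored members, at 0.67 ± 0.38 over the mean (edgeR adjusted p = 0.139). With EMC6 it stood at 1.6 ± 0.72 (0.0992), where its inputs held 6 and 7 counts (2.17 and 2.4 CPM) and its IPs 7 and 3 (13.1 and 3.29 CPM), both IPs above both inputs. The 3 tested tail-anchored R-SNAREs, the vesicle-side partners, were near 0 as well: SEC22B is given above, VAMP3 of recycling endosomes stood at -0.21 ± 0.30 and VAMP8 of late endosomes at -0.01 ± 0.27.

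By the membrane where the protein works, 12 SNAREs of the ER and Golgi had 2 risen and 2 fallen members over the mean and a median of -0.32. For 8 SNAREs of endosomes and the trans-Golgi network there were 0 and 2, with a median of -0.42. For 3 of the plasma membrane (STX4, SNAP23 and VAMP3) there were 0 and 2, with a median of -0.69. VAMP3, named above for recycling endosomes, was thus counted with the plasma membrane, and STX17 with the ER and Golgi. SNAP29 and SNAP47 were in none of these sets. The risen members of the first set were SEC22A and SEC22C. The same 23.7% higher and 26.9% lower of all genes apply to each set, and differences between the sets were not tested.

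The SNAREs without a membrane segment are attached through lipid groups or through partner SNAREs. SNAP23 (chromosome 15, 42491129 to 42533058), a palmitoylated SNARE of the plasma membrane, had counts of 65 and 33 against 2 and 11 with EMC6, 60 and 28 against 12 and 11 with EMC7, and 64, 54 and 49 against 6, 10 and 6 with EMC10. Inputs and IPs overlapped in the EMC6 and EMC7 lines and were separate with EMC10, at 11.9 to 14.8 against 5.73 to 8.96 CPM. SNAP23 fell over the mean by 0.69 ± 0.24 (edgeR adjusted p = 0.0179). That call was lost in 6 of 22 settings (up to 0.108), which were DESeq2, the mean of EMC7 and EMC10, and each of EMC6 input 1, EMC6 IP 1, EMC7 input 1 and EMC7 IP 1 left out. In the EMC10 line -0.85 ± 0.37 did not pass (0.0737) but did with the pairs as a block (0.0363). SNAP23 overlaps ZNF106 and LRRC57 in RefSeq and has a listed pseudogene.

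SNAP29, which serves fusion of autophagosomes, had counts of 7 and 22 against 4 and 3 with EMC6, 17 and 16 against 6 and 0 with EMC7, and 23, 16 and 36 against 3, 2 and 6 with EMC10. SNAP47 had 47 and 41 against 4 and 14, 53 and 35 against 22 and 9, and 43, 52 and 50 against 12, 9 and 9 in the same order of lines. YKT6, a lipid-modified R-SNARE of the Golgi and endosomes, had 15 and 16 against 5 and 0, 39 and 24 against 13 and 4, and 37, 40 and 28 against 4, 8 and 8. In CPM, input and IP overlapped in all 3 lines for each of these, with mean changes of -0.52 ± 0.42 for SNAP29, -0.13 ± 0.21 for SNAP47 and -0.39 ± 0.32 for YKT6, and none passed. SNAP47 overlaps JMJD4 in RefSeq. STX11, a lipid-modified syntaxin of immune cells, had 6 counts over all inputs and 2 over all IPs: 1 in EMC6 input 2, 3 in EMC7 input 1, 1 in each of EMC10 inputs 1 and 2, and 2 in EMC6 IP 1. It was not tested.

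The tail-anchored and the segment-free SNAREs were then set against each other. Of the members tested, 14 of 19 tail-anchored but 1 of 4 segment-free had passed the filter through inputs alone. Over the mean the medians were -0.43 for 19 tail-anchored and -0.46 for 4 segment-free members, a difference of 0.03 that ranged from -0.25 to 0.32 when single libraries were left out, with 0.32 without EMC6 IP replicate 1. Sums over all members of a class, untested ones included, do not use the filter. The 29 tail-anchored messages together had 149 ± 7.6 CPM in the EMC6 inputs and 123 ± 16 in the IPs (SD, n = 2). In the EMC7 line they had 120 ± 4.6 and 83.2 ± 5.4 (n = 2), and in the EMC10 line 131 ± 7.3 and 85.4 ± 8.4 (n = 3). The 5 segment-free messages had 43.6 ± 6.9 against 31.2 ± 0.79 CPM, 36.6 ± 4.9 against 31.6 ± 9.2, and 39.5 ± 3.9 against 27.9 ± 2.1. Both sums were lower in the IP of every pair, by -0.50 ± 0.20 for tail-anchored and -0.42 ± 0.19 for segment-free messages (log2, SD over 7 pairs). Their difference within pairs was -0.08 ± 0.29, from -0.43 to 0.51, and its sign turned in 1 pair, the first of the EMC6 line. It was smaller than the spread between pairs.

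SEC22A and SEC22C together went the other way, with 19.1 ± 3.5 against 40.6 ± 4.5 CPM with EMC6, 34.8 ± 7.8 against 78.4 ± 19 with EMC7, and 35.5 ± 6.7 against 80.5 ± 2.0 with EMC10. Their summed log2 ratio was 1.16 ± 0.18 over the pairs and exceeded that of the tail-anchored sum by 1.66 ± 0.24 within pairs, from 1.27 to 1.98, in 7 of 7. Being ratios within a library, these margins do not move with the scaling.

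**Figure D4:**
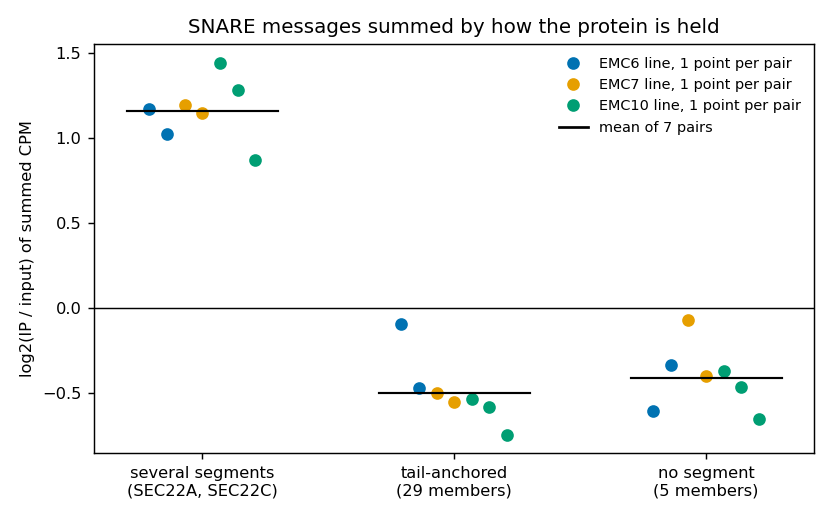
Log2 ratio of IP to input of CPM summed over SEC22A and SEC22C, over the 29 tail-anchored and over the 5 segment-free SNAREs, with 1 point for each of the 7 library pairs coloured by line and a bar for the mean. The first class lies between 0.87 and 1.44, and the points of the other two interleave below 0.

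No SNARE passed a test of the difference between baits. In the tests of the difference in IP over input, 0 of 25 passed for EMC6 against EMC7, EMC6 against EMC10 and EMC7 against EMC10, where 0.518%, 0.074% and 0.159% of all genes did. At an unadjusted p under 0.05 edgeR gave 1, 1 and 0 SNAREs, with no share of all genes at that cutoff given here. DESeq2 called 0 SNAREs in each. The smallest adjusted p values were 0.456, 0.777 and 0.887. For SEC22A the differences were 0.04 ± 0.43, -0.12 ± 0.42 and -0.16 ± 0.34 in that order, and for SEC22C -0.17 ± 0.52 between EMC6 and EMC7 and 0.17 ± 0.37 between EMC7 and EMC10.

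Before the IP, SEC22A, SEC22C and GOSR1 already differed between the EMC6 line and the other lines. Compared with the mean of the EMC7 and EMC10 inputs, SEC22A was lower by -0.79 ± 0.24 (edgeR adjusted p = 0.008) and SEC22C by -1.01 ± 0.29 (0.00574), while GOSR1 was higher by 1.17 ± 0.32 (0.00379). The SEC22A inputs of the EMC6 line, at 11.6 and 11.9 CPM, were below the 16.3 to 26.5 CPM of the other lines. For GOSR1 the EMC6 inputs held 11.9 and 8.55 CPM and the others 3.52 to 5.89, and for SEC22C 4.70 and 9.92 against 11.9 to 17.6, with no overlap for any of them. These 1 higher and 2 lower of 25 are smaller shares than the 15.3% and 21.8% of all genes. In that comparison 77 of 83 tested luminal and secreted messages were lower and 0 higher, with a median of -0.97, and reads not assigned to a gene made up 9.28 to 12.5% of EMC6 libraries against 2.76 to 5.15% of the others. The part of either in the SNARE differences was not tested.

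These input differences depended on scale and library. Scaling on the luminal and secreted list gave 18 SNAREs higher and 0 lower, where 6695 of 9458 genes were higher and 292 lower. It turned SEC22A to 0.18, when the median of all genes moved from 0.07 to 1.04. Relative to that median SEC22A stood at -0.86 (-0.96 to -0.72 over 20 settings), SEC22C at -1.07 (-1.71 to -0.61) and GOSR1 at 1.10 (0.89 to 1.33). Without EMC6 input replicate 1, GOSR1 (adjusted p = 0.117) and SEC22C no longer passed. The knockout, the EMC6 transgene and the preparation of that line cannot be told apart.

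The 11 SNAREs left untested were STX1A, STX2, STX3, VAMP1, VAMP2, VAMP4, VAMP5, VAMP7, BET1L, VTI1B and STX11. None had more than 16 counts in any library, and their totals were 0 to 74 over the inputs and at most 10 over the IPs. STX1A, VAMP1 and VAMP2 are SNAREs of neuronal exocytosis. VAMP7 was listed at 0 in all 14 libraries, as was the ATPase gene NSF, which every cell uses, so a 0 in these tables is not read as absence. The tested tail-anchored members themselves held only 4 to 68 counts per input and 0 to 14 per IP, which limits what single lines can show.

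Beside the SNAREs stood 44 regulators of SNARE action (tethers, SM proteins, synaptotagmins, NSF cofactors), of which 38 were tested. Over the mean 3 rose and 15 fell, with a median of -0.41, where 23.7% of all genes were higher and 26.9% lower. The 2 highest of those that rose were SYT7 (1.33 ± 0.37) and SYT11 (0.99 ± 0.13), synaptotagmins with a membrane segment near the N-terminus. The lowest were STXBP4 (-0.86 ± 0.22), a syntaxin-binding protein, and VPS11 (-0.86 ± 0.32), a tethering subunit. Of the GET pathway, which inserts tail-anchored proteins, 7 genes were in the tables and 6 were tested: the membrane receptor subunits GET1 (0.64 ± 0.14) and CAMLG (0.44 ± 0.13) rose and 0 fell, with a median of 0.24.

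Tail-anchored proteins outside the SNARE family are read against the same 23.7% higher and 26.9% lower of all genes. Of 14 tested ER members 0 rose and 5 fell, led by VAPA (-0.89 ± 0.17) and VAPB (-0.63 ± 0.21), the ER tethers of contact sites, and the median was -0.36. Of 18 tested mitochondrial members 1 rose, the cell death protein BAX (0.69 ± 0.23), and 4 fell, led by the fission adaptor MFF (-0.91 ± 0.29) and the motor adaptor RHOT1 (-0.66 ± 0.24), with a median of -0.26. Luminal and secreted proteins, which cross the membrane during translation, had 51 risen and 1 fallen of 83 and a median of 0.42. Differences between these lists were not tested.

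**Figure D5:**
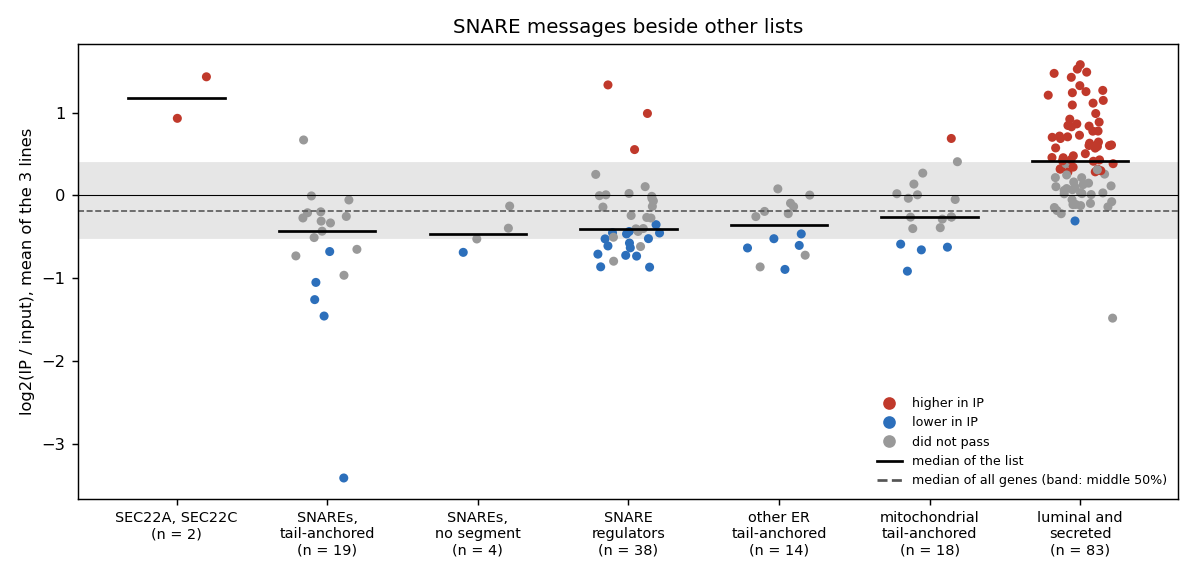
Fitted log2 ratio of IP to input over the mean of the 3 lines for each tested gene of 7 lists, coloured by whether it passed, with the list median as a bar, the median of all genes as a dashed line and their middle 50% as a grey band. SEC22A and SEC22C lie above the band, the medians of the tail-anchored and segment-free SNAREs, -0.43 and -0.46, lie in its lower part, and the lowest SNARE point is VTI1A, whose fit rests on IPs with 0 counts.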

How the data were processed

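Raw counts of ribosome footprints per gene were deposited by the authors as 1 table per library. Per the submitters' processing notes, reads were handled with cutadapt 4.1, Bowtie2 2.2.6 and TopHat2 2.1.0 on hg38; these notes name no annotation, strand setting or duplicate handling. The 5 rows naming no gene were left out. Counts were scaled by TMM and tested in edgeR 4.0.16 (quasi-likelihood, limma 3.58.1, R 4.3.3) over all 14 libraries, after edgeR's expression filter by group (10 counts at the median library size, in at least 2 libraries), with Benjamini-Hochberg adjustment over 9458 genes. SEs are the log2 change over the square root of F. DESeq2 1.42.0 and the settings of the closing section were alternatives. The code was tested on simulated data. Values per pair used a pseudocount of 0.5 counts.

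The labels' batch field gives IP and input of a line the same replicate number, so they were treated as pairs in a block alternative; same-numbered deviations correlated at 0.27 in the EMC6 line, 0.0744 in EMC7 and 0.0411 to 0.0951 in EMC10. Replicates of every group differed by more than counting noise, at 1.91 to 7.74 times the chi-square of identical libraries. P-values measure the spread between these libraries, which may be technical.

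Members and lists were chosen with earlier results of these data known. Library values were given for SEC22A, SEC22C, the segment-free members and each member that passed; from other lists, at most the 2 highest and 2 lowest that passed were named. SEC22B was added after its values were seen. Coordinates and overlaps come from RefSeq's table of GRCh38.p14, which matched 18968 symbols. A planned description of membrane segments from protein sequence was not run, and protein sequences were not used here.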

Additional observations from a re-analysis of the deposited data

How the results depend on the processing

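SEC22C over the mean of the lines passed in all 22 settings. Counts of risen and fallen SNAREs were less stable, and the cause was not tested except for scale. With library size alone, higher and lower counts became 0 and 6 with EMC6, 0 and 18 with EMC7, and 0 and 23 with EMC10. They became 1 and 22 over the mean, and 7 and 1 between inputs. Among all 9458 genes the counts were 990 and 4320, 1001 and 6038, 760 and 7171, 1135 and 7282, and 3434 and 1452. Without bait counts the SNARE counts were 0 and 6, 1 and 12, 1 and 16, 1 and 21, and 6 and 1. Those of all genes were 995 and 4256, 1196 and 5144, 1123 and 5647, 1372 and 6708, and 3365 and 1467. With scaling on luminal and secreted messages there were 0 risen SNAREs with EMC6, 1 and 6 with EMC7, and 10 fallen with EMC10. There were 19 fallen over the mean, and 18 and 0 between inputs. Among all genes 1201 rose with EMC6, 1359 rose and 3804 fell with EMC7, and 3069 fell with EMC10. Over the mean 5467 of all genes fell, and 6695 were higher and 292 lower between inputs. These scales moved the all-gene median of the mean from -0.19 to -1.13, -0.92 and -0.64, and that of the inputs from 0.07 to 0.37, 0.36 and 1.04. SEC22A reversed with library size alone, to -0.16 with EMC7, -0.090 with EMC10 and -0.019 over the mean, and to 0.18 between inputs with luminal scaling. For the next settings, brackets hold the counts among all genes of the same fit. DESeq2's size factors gave 2 risen with EMC6 (1803) and 2 fallen with EMC10 (950). DESeq2 itself called 0 fallen with EMC6 (339), 1 with EMC10 (734), 3 over the mean (1520) and 0 higher inputs (597). Without the count filter 1 fell with EMC7 (939). With each line alone, 0 rose and 1 fell with EMC6 (1114 and 128), and 1 fell with EMC7 (986).

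With the replicate pairs as a block, 2 rose with EMC6 (1 without) and 1 fell with EMC7 (0 without). Among all genes 1862 rose with EMC6 (1666 without) and 1446 fell with EMC7 (916 without). SEC22A with EMC6, STX4 with EMC7 and SNAP23 with EMC10 gained a call, and no SNARE lost one.

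Leaving out single libraries gave 0 to 1 risen and 0 to 4 fallen with EMC6, 0 to 2 and 0 to 1 with EMC7, and 1 to 5 fallen with EMC10. It gave 0 to 2 higher and 1 to 2 lower inputs, and tail-anchored minus segment-free medians of -0.25 to 0.32. The lowest counts came without EMC6 input 1 (0 risen with EMC6, 0 higher and 1 lower inputs), EMC6 IP 2 (0 fallen with EMC6), EMC7 IP 1 (0 risen with EMC7) and EMC10 IP 2 (1 fallen). The mean of EMC7 and EMC10 alone was chosen after seeing the data and gave 2 risen and 4 fallen. Among all genes it gave 2156 risen and 2051 fallen. Tested tail-anchored messages held 0 to 14 counts per IP, a limit on what single lines can show.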
